A study of Mus musculus with 6 samples.

Results

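Matrix metalloproteinases are zinc-dependent enzymes that cut collagens, elastin and other matrix proteins outside the cell, and tissue inhibitors of metalloproteinases (TIMPs) bind and block them. Transcripts of 10 such genes were followed here in liver macrophages, taken by their symbol in the deposited table of 14918 genes. The genes were the 7 proteases Mmp2, Mmp8, Mmp9, Mmp12, Mmp13, Mmp14 and Mmp19 and the 3 inhibitors Timp1, Timp2 and Timp3. All 10 were in the table, and all 10 were among the 14361 genes that passed the low-count filter of the test.

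The mice were C57BL/6 and received a high fat diet (HFD) or a normal diet (ND) for 18 weeks from about 6 weeks of age, with 3 mice and 3 RNA sequencing libraries per diet. No genetic change or other agent is given in the labels for either group. How the cells were isolated and the sex of the mice were not given in the sources used here. The comparison asks how expression in liver macrophages differs between the diets. Total counts per library ranged from 17470439 to 23610956. All 10 markers of Kupffer cells (liver-resident macrophages, marked by Clec4f and Timd4) were present, with summed levels of 17018 to 21097 CPM (counts scaled to a common library size) on HFD and 15685 to 26073 CPM on ND. None of the 10 passed the test described below with all libraries. In that test Id3 was lower at an unadjusted p under 0.05, which 18.6% of all genes reached in either direction. DESeq2 called Id3 lower, as did that test without ND replicate 2. Transcripts of other liver cells were present too, and their levels are given beside those of the members.

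As background, most metalloproteinases are made as inactive precursors and are switched on by removal of a propeptide, often by plasmin, by furin or by another metalloproteinase. Macrophages are a known source of Mmp12, which cuts elastin, and of Mmp13, a collagenase linked to the breakdown of scar matrix in mouse liver. Neutrophils store Mmp8 and Mmp9 in granules, and stellate cells, the matrix-making cells of the liver, produce Mmp2 and several TIMPs.

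On the high fat diet, the macrophage elastase Mmp12 and the neutrophil collagenase Mmp8 rose, by 5.33-fold and 6.19-fold. None of the other 8 members passed the test in either direction. The membrane-anchored protease Mmp14 and the collagenase Mmp13 had positive log2 fold changes of 0.74 ± 0.35 and 0.60 ± 0.25 (SE), and Timp3 a negative one of -0.81 ± 0.37. In edgeR's quasi-likelihood test with Benjamini-Hochberg adjustment over all genes, 2 of 10 members passed an adjusted p of 0.05, against 0.634% of all genes tested (0.446% higher and 0.188% lower). CPM values of the diets did not overlap in 3 of the 10, Mmp12, Mmp8 and Mmp2, against 25.3% of all genes. The median log2 fold change was 0.16 over the members and 0.00 over all genes. Leaving out HFD replicate 1, 2 or 3 or ND replicate 1 took the members called from 2 to 0, leaving out ND replicate 3 left 1, and leaving out ND replicate 2 left both. The share of all genes called was 0.0275%, 0% and 0.0137% without HFD replicates 1, 2 and 3, and 0%, 9.44% and 0.151% without ND replicates 1, 2 and 3. With a hepatocyte marker score as a covariate, 0 members and 0% of genes were called. That score did not overlap between the diets, at 7.61 to 8.47 on HFD and 4.59 to 6.79 on ND. Its effect and that of the diet therefore cannot be fully separated in 6 libraries. Mmp12 and Mmp8 were also the members called under each other scaling, filter, prior and tool tried. The background there was 0.592% of genes with median-ratio scaling, 0.752% with upper-quartile scaling, 0.697% without a filter and 0.669% with a filter at 1 CPM. It was 0.752% with a prior that was not robust, 0.564% in limma voom and 8.08% in DESeq2.

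**Figure D1:**
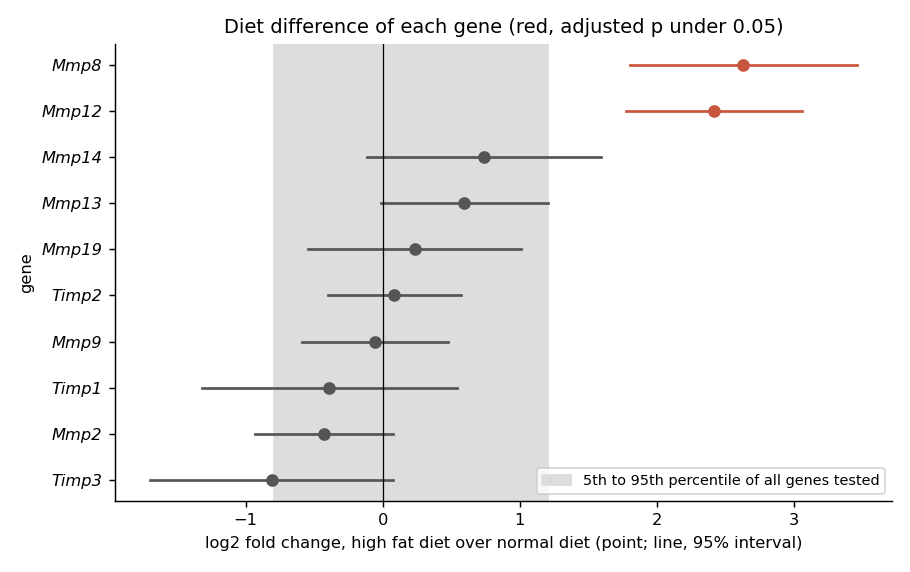
Log2 fold change of each of the 10 genes, HFD over ND, with its 95% interval from the edgeR fit. Mmp8 and Mmp12 (red) lie at 2.63 and 2.41, above the grey band that holds the 5th to 95th percentile of all genes tested, and the intervals of the other 8 genes include 0.

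Mmp12, Mmp8 and Mmp13 lie in 1 run of 10 metalloproteinase genes on mouse chromosome 9, which spans 427.1 kb in the GENCODE annotation of GRCm38. In mm10, the deposited table places Mmp13 (ENSMUSG00000050578) at 7272514 to 7283333, Mmp12 (ENSMUSG00000049723) at 7344381 to 7369499 and Mmp8 (ENSMUSG00000005800) at 7558429 to 7568486, all on the plus strand. RefSeq promoters of build GRCm38.p6 are shown for these genes because the members that rose both sit in this run. Each is the 250 bases before a start annotated in RefSeq, 5′ to 3′ on the plus strand, and Mmp12 has a second annotated start within its gene body. Capitals mark TGAGTCA, the consensus of the AP-1 factors (Fos and Jun), and GAGGAAGT, a core bound by the macrophage factor PU.1 (gene Spi1), on either strand.
Mmp13, chr9:7272264-7272513: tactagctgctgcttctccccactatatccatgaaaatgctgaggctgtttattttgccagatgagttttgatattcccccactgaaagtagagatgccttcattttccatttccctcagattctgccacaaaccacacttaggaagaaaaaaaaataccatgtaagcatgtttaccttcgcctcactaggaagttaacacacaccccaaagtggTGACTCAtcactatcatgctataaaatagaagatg
Mmp12 at the gene start, chr9:7344147-7344396: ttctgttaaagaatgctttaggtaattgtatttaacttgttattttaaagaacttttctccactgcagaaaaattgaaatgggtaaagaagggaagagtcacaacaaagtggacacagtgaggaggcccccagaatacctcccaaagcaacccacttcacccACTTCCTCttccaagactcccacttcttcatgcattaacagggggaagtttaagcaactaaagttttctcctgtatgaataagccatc
Mmp12 at the internal start, chr9:7347124-7347373: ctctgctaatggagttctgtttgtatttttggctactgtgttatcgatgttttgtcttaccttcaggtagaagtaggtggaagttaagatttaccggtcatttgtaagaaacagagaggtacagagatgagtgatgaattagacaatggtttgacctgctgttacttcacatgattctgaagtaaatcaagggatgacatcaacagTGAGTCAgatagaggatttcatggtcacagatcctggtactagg
Mmp8, chr9:7558179-7558428: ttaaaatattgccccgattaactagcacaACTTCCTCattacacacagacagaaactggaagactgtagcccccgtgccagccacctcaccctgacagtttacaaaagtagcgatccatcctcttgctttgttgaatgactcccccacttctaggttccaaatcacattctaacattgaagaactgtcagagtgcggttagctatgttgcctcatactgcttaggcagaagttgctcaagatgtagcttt
The AP-1 letters lay 35 to 29 bases before the start of Mmp13, as the reverse complement TGACTCA, and 44 to 38 bases before the internal start of Mmp12. They occur in 4.46% of 32851 promoter windows of this length. The GAGGAAGT letters lay, as the reverse complement ACTTCCTC, 88 to 81 bases before the gene start of Mmp12 and 221 to 214 bases before that of Mmp8, and occur in 2.44% of windows. Promoters were found for 7 members (8 windows), Timp1, Timp2, Timp3 and Mmp14 among them, and the windows of these 4 held neither motif. The shorter ETS core AGGAAG, which overlaps GAGGAAGT, was in windows of 6 members and in 29.5% of all windows. The motifs were chosen with the sequences in view, and a match is a description of letters only.

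Of the 10 genes of the run, 4 were in the deposited table, and all 4 had positive log2 fold changes. Mmp27, the neighbour of Mmp8, stood at 2.89 ± 0.555 CPM on HFD and 1.37 ± 0.823 CPM on ND (SD, n = 3). It did not pass over all genes, with a log2 fold change of 1.07 ± 0.44 (SE, edgeR adjusted p = 0.252). It was called higher without ND replicate 2. Mmp1b, Mmp3, Mmp1a, Mmp10, Mmp20 and Mmp7 were not analysed here.

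**Figure D2:**
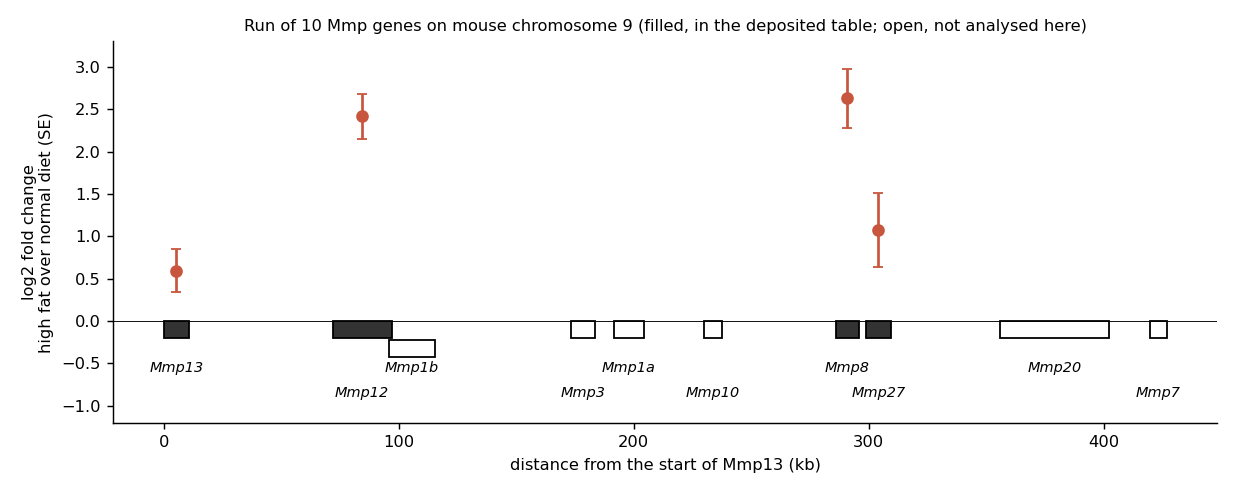
The 10 Mmp genes of the run on chromosome 9, drawn to scale by distance from the start of Mmp13 in kb, with the log2 fold change (HFD over ND, bars SE) of the 4 genes in the deposited table. Mmp1b, drawn in the lower row, is the gene on the minus strand, and the 4 points lie between 0.60 for Mmp13 and 2.63 for Mmp8.

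Mmp12 stood at 238, 227 and 389 CPM in HFD replicates 1 to 3 and at 64.2, 42.5 and 53.6 CPM in ND replicates 1 to 3. Every HFD library of Mmp12 lay above every ND library, and HFD replicate 3 was the highest. The means were 285 ± 90.6 and 53.4 ± 10.8 CPM (SD, n = 3), a log2 fold change of 2.41 with a 95% interval of 1.77 to 3.06 (edgeR adjusted p = 0.0415). With 1 library left out the log2 fold change lay between 2.12 and 2.56. Its adjusted p was then 0.0236 without ND replicate 2 and between 0.0782 and 0.148 without any other library, so the call held in 1 of 6. When the hepatocyte marker score of each library (its mean log2 marker level) was a covariate, the log2 fold change was 2.86 ± 0.37 (SE), with an unadjusted p of 0.000292 and an adjusted p of 0.237.

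Lipid-associated macrophages are known from obese tissue and express Trem2 and Gpnmb. Their markers, like Mmp12, were higher on HFD. In edgeR 1 of 10 passed, the fatty acid receptor Cd36 (8 in DESeq2), a call that ended without HFD replicate 2 or 3 or ND replicate 1. Gpnmb was called too with upper-quartile scaling or no filter, and both Gpnmb and Trem2 with a prior that was not robust and in limma voom. All 10 had CPM values that did not overlap between the diets and were higher on HFD, against 14.5% of all genes. Their summed level was 2906, 3393 and 4485 CPM in HFD replicates 1 to 3 and 1767, 1368 and 1366 CPM in ND replicates 1 to 3. The highest library was HFD replicate 3 for both Mmp12 and this sum. HFD replicates 1 and 2 stood in the opposite order for Mmp12, at 238 and 227 CPM. Non-overlap was also seen in 11 of 11 tested neutrophil markers and 15 of 17 tested hepatocyte markers, against 25.3% of all genes. In the monocyte and recruited macrophage list, 7 of 12 markers did not overlap, against 25.3% of all genes in either direction. In edgeR 3 of them passed, Fn1, F13a1 and Itgam (0 or 1 with any 1 library other than ND replicate 2 left out). The sums of this list were 6213 to 7514 CPM on HFD and 4454 to 5965 CPM on ND. Dendritic cell markers were lower on HFD, and 4 of 9 did not overlap between the diets, against 25.3% of all genes in either direction. All 9 had negative log2 fold changes and Itgae, an integrin of such cells, fell by 2.13 on the log2 scale (edgeR adjusted p = 0.0231; 4 lower in DESeq2), a call that ended without HFD replicate 1, 2 or 3 or ND replicate 1. Without ND replicate 2, 8 were called lower. Their sums were 513 to 564 CPM on HFD and 604 to 983 CPM on ND. Fewer cells of a type and less RNA per cell cannot be told apart in bulk libraries, and the part of these cell types in the Mmp12 and Mmp8 differences was not tested.

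Mmp8 stood at 6.05, 4.93 and 7.29 CPM in HFD replicates 1 to 3, from 127, 87 and 173 reads. On ND it stood at 0.858, 0.632 and 1.44 CPM, from 17, 12 and 29 reads. The diets did not overlap, although the ND libraries ranged more widely for their level, with a coefficient of variation of 42.8% against 19.4%. The log2 fold change was 2.63 with a 95% interval of 1.80 to 3.46 (edgeR adjusted p = 0.0430). With 1 library left out it lay between 2.39 and 3.02. The adjusted p was 0.0108 without ND replicate 2, 0.0440 without ND replicate 3, and between 0.119 and 0.184 without any of the other 4 libraries, where the call ended. When the hepatocyte score was a covariate, the log2 fold change was 2.45 ± 0.58 (SE, unadjusted p = 0.00504, adjusted p = 0.444).

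Neutrophil markers, like Mmp8, were higher on HFD. Of 14 listed, 12 were in the table, and all 11 tested had non-overlapping CPM values, higher on HFD, with a median log2 fold change of 2.35. The calprotectin subunits S100a8 and S100a9 passed the edgeR test, at log2 fold changes of 2.52 ± 0.28 and 2.98 ± 0.31 (SE, adjusted p = 0.0351 each). Neither passed when HFD replicate 1, 2 or 3 or ND replicate 1 was left out, while 6 markers passed without ND replicate 2 and 8 in DESeq2. The summed level of the list was 296 to 336 CPM on HFD and 194 to 206 CPM on ND. Csf3r, the G-CSF receptor gene, made up most of that sum, and without it the sums were 97.1 to 129 CPM and 11.0 to 46.9 CPM. Fcnb was at 0 reads in at least 1 library, and Ly6g and Stfa2l1 were not analysed here. The CPM of Mmp8 was 0.190 to 0.265 times that of S100a9 on HFD and 0.279 to 0.283 times on ND. The part of neutrophil RNA in the Mmp8 difference was not tested.

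**Figure D3:**
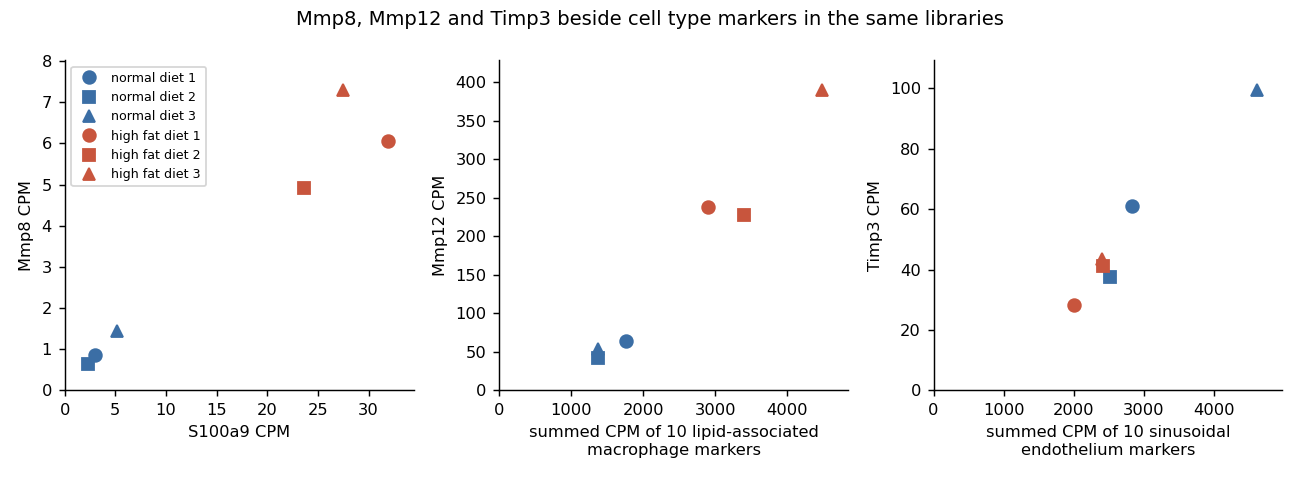
CPM of Mmp8, Mmp12 and Timp3 (vertical axes) in each library beside the CPM of S100a9 or the summed CPM of marker lists in the same library (horizontal axes), with circle, square and triangle for replicates 1, 2 and 3. For Mmp8 and Mmp12 the HFD libraries lie apart at the upper right, and for Timp3 ND replicate 3 stands alone at 99.3 CPM.

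The gelatinase Mmp9 (ENSMUSG00000017737, chromosome 2, 164940780 to 164955850), also a neutrophil granule product, was at 19.9, 11.9 and 14.0 CPM on HFD and at 17.0, 12.7 and 18.0 CPM on ND. The diets overlapped, with HFD replicate 1 above and HFD replicate 2 below every ND library. The log2 fold change was -0.058 with a 95% interval of -0.59 to 0.48 (edgeR adjusted p = 0.915). Its sign turned in 3 of 6 fits with a library left out. The CPM of Mmp9 was 0.504 to 0.623 times that of S100a9 on HFD and 3.47 to 5.63 times on ND. Mmp2 (ENSMUSG00000031740, chromosome 8, 92827328 to 92853417) is the other gelatinase and a product of stellate cells and fibroblasts. It was at 2.91, 3.79 and 4.04 CPM on HFD and at 4.99, 5.16 and 4.33 CPM on ND. All 3 ND libraries lay above the HFD libraries, by a narrow margin, and the log2 fold change was -0.43 (95% interval -0.93 to 0.074, adjusted p = 0.334).

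Of 13 markers of stellate cells and fibroblasts, 11 had log2 fold changes below 0 (median -1.11). No marker of the list passed in edgeR (2 lower in DESeq2, Dcn and Reln). At an unadjusted p under 0.05 in edgeR 5 were lower, against 18.6% of all genes in either direction. Their summed level was 195 to 235 CPM on HFD and 197 to 440 CPM on ND. None was at 0 in any library. Ecm1 was the most abundant of them, and without it the sums were 44.2 to 65.5 and 72.8 to 233 CPM. Without ND replicate 1 the median was -0.12. The part of these cells in the level of Mmp2 was not tested.

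Mmp14 (ENSMUSG00000000957, chromosome 14, 54431604 to 54441258), the membrane-anchored protease that activates the Mmp2 precursor, was at 80.4, 106 and 141 CPM on HFD and at 73.0, 36.6 and 87.3 CPM on ND. The groups overlapped, with ND replicate 2 the lowest of all 6 and HFD replicate 3 the highest. The 95% interval of its log2 fold change ran from -0.12 to 1.59 (edgeR adjusted p = 0.327). Mmp13 was at 36.8, 27.4 and 51.6 CPM on HFD and at 30.8, 24.5 and 21.4 CPM on ND, with a 95% interval of -0.0097 to 1.20 (adjusted p = 0.274). Again HFD replicate 3 was the highest, and only HFD replicate 2 reached down into the ND range.

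Mmp19 (ENSMUSG00000025355, chromosome 10, 128790953 to 128800824), a soluble metalloproteinase expressed in myeloid cells, was at 55.8, 59.9 and 69.5 CPM on HFD. On ND it was at 80.8, 33.6 and 43.1 CPM, so that the 3 HFD values fell between ND replicates 3 and 1. Its log2 fold change was 0.23 (95% interval -0.55 to 1.01, edgeR adjusted p = 0.741) and turned to -0.020 without ND replicate 2. With the hepatocyte score as a covariate it was 1.20 ± 0.21 (SE, edgeR unadjusted p = 0.00101, adjusted p = 0.374). Without ND replicate 1, the lowest in that score, it was 0.67 (edgeR unadjusted p = 0.00392, adjusted p = 0.149). The antisense gene Gm47093 covers the gene on the opposite strand, and Tmem198b, at 12.5 ± 0.710 CPM on ND (SD, n = 3), overlaps its end. Mmp12 likewise shares its last 1261 bases with Mmp1b on the opposite strand. Strand retention is not stated in the protocol, and reads from such overlaps cannot be told apart.

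**Figure D4:**
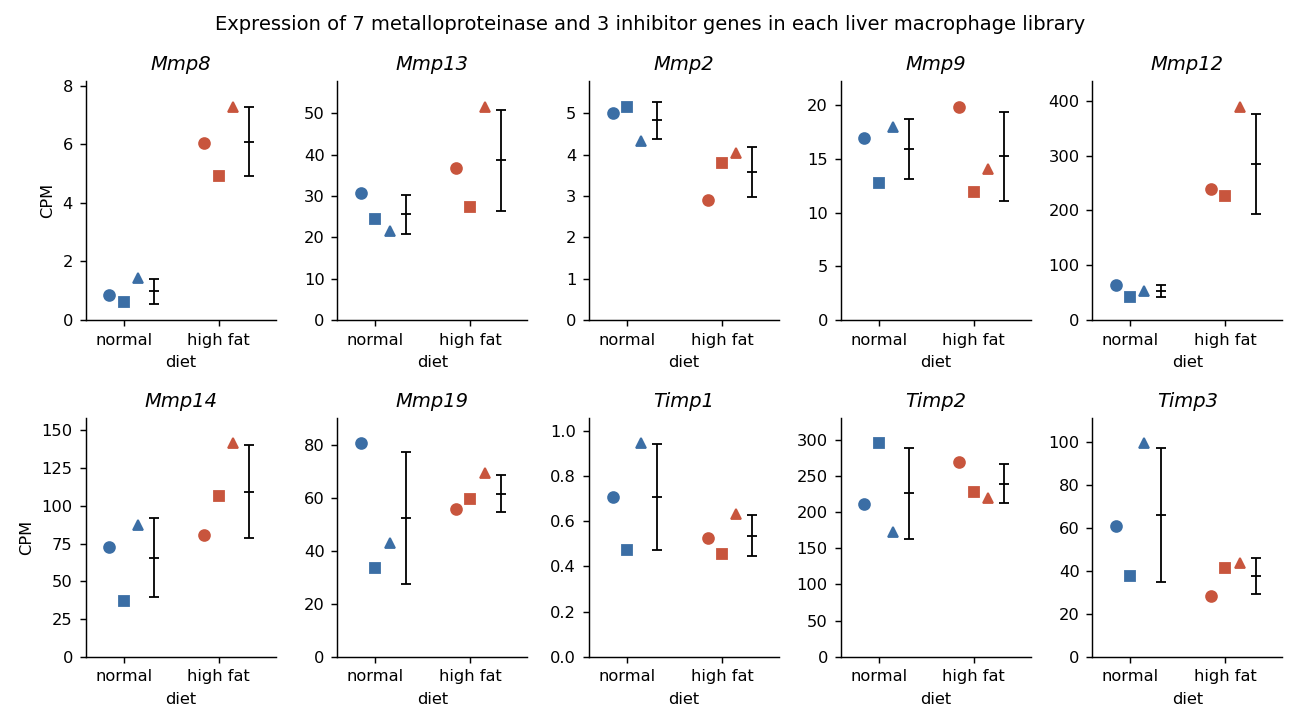
CPM of each gene in each library by diet (circle, square and triangle for replicates 1, 2 and 3), with the mean and SD of 3 libraries in black, on vertical axes that start at 0 and differ between panels. The diets stand apart for Mmp8 and Mmp12 and, by a narrow margin, for Mmp2.

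Timp2 (ENSMUSG00000017466, chromosome 11, 118301069 to 118355740, minus strand), which inhibits metalloproteinases and also takes part with Mmp14 in activating Mmp2, was the most abundant member per length. It was at 269.6, 228 and 219.9 CPM on HFD and at 211, 295 and 172 CPM on ND. The HFD values all lay inside the ND range. The log2 fold change was 0.083 with a 95% interval of -0.40 to 0.57 (edgeR adjusted p = 0.863), and its sign turned without HFD replicate 1 and without ND replicate 3.

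Timp3 (ENSMUSG00000020044, chromosome 10, 86300372 to 86349506), an inhibitor held in the matrix that also blocks the sheddase Adam17, was at 28.1, 41.2 and 43.5 CPM on HFD and at 60.9, 37.4 and 99.3 CPM on ND. ND replicate 2 lay within the HFD range and replicate 3 far above it. The 95% interval of its log2 fold change was -1.69 to 0.077 (edgeR adjusted p = 0.301), and the value was between -1.10 and -0.39 with a library left out. Sinusoidal endothelium markers, the cells that line the liver capillaries, were 2001, 2420 and 2396 CPM in sum on HFD and 2830, 2520 and 4608 CPM on ND. Of these 10 markers, 9 had negative log2 fold changes, none passed in edgeR with all libraries and none was at 0 in any library. Pecam1 was lower at an unadjusted p under 0.05 in edgeR, against 18.6% of all genes in either direction. It was called lower in DESeq2, and in edgeR without ND replicate 2. HFD replicate 1 was the lowest and ND replicates 1 and 3 were the highest both for Timp3 and for this sum. The part of endothelial RNA in the level of Timp3 was not tested.

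Timp1 (ENSMUSG00000001131, chromosome X, 20870166 to 20874735), the inhibitor that is induced in stellate cells of injured liver, was near the lower limit of the data. It had 11, 8 and 15 reads on HFD and 14, 9 and 19 reads on ND, or 0.524, 0.453 and 0.632 CPM and 0.706, 0.474 and 0.945 CPM. No difference passed the test, and the 95% interval of the log2 fold change was wide, from -1.32 to 0.54 (edgeR adjusted p = 0.637). Timp1 lies wholly inside the gene Syn1 on the opposite strand, which had 30.4 ± 7.97 CPM on ND and 35.7 ± 2.39 CPM on HFD (SD, n = 3). Timp3 likewise lies inside Syn3, which was under 1 CPM in both diets. Without strand, reads shared by such pairs cannot be told apart.

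Levels of different genes were compared per length, in the deposited FPKM (fragments scaled by gene length and library size). On ND Timp2 stood above all other members in every library, at 60.3 ± 16.7 FPKM (SD, n = 3). Mmp14 (25.0 ± 10.1 FPKM), Mmp19 (15.2 ± 6.97), Timp3 (13.9 ± 6.73), Mmp12 (11.8 ± 2.27) and Mmp13 (9.45 ± 1.61) followed, each overlapping the next across libraries. Within every ND library Mmp14 stood above Mmp19, and Mmp12 above Mmp13. Mmp9 at 4.96 ± 0.877, Mmp2 at 1.57 ± 0.129 and Timp1 at 0.796 ± 0.272 FPKM each lay below the one before without overlap. Mmp8 came last at 0.396 ± 0.174 FPKM and overlapped Timp1 across libraries, but was below Timp1 within every ND library.

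The order of the means on HFD differed at Mmp12, Mmp8, Mmp13 and Timp3. Mmp12, at 64.1 ± 20.2 FPKM, overlapped Timp2 at 65.0 ± 7.27 FPKM at the top, and Mmp14 at 42.4 ± 11.8 FPKM overlapped Mmp12. Mmp13, at 14.5 ± 4.56 FPKM, lay above Timp3, at 8.02 ± 1.77 FPKM, without overlap. Mmp8, at 2.50 ± 0.478 FPKM, lay above Mmp2 at 1.19 ± 0.197 and Timp1 at 0.612 ± 0.101 FPKM in every library. Of the summed FPKM of the 7 proteases, Mmp12 made up 42.9%, 40.1% and 45.8% in HFD replicates 1 to 3 and 16.9%, 19.6% and 16.2% in ND replicates 1 to 3.

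The summed protease FPKM was 125, 128 and 191 on HFD and 82.7, 48.2 and 74.3 on ND. Without Mmp12 the sums were 71.3, 76.5 and 103 FPKM and 68.7, 38.8 and 62.3 FPKM. The summed inhibitor FPKM was 79.8, 71.5 and 69.5 against 68.7, 87.3 and 68.8, with overlapping diets. The ratio of inhibitor to protease FPKM was thus 0.639, 0.559 and 0.365 on HFD and 0.831, 1.81 and 0.926 on ND, lower in all 3 HFD libraries. Without Mmp12 the diets overlapped in this ratio. HFD replicate 1 then had 79.8 FPKM of inhibitors to 71.3 of proteases, and ND replicate 1 had 68.7 to 68.7. These sums were made over chosen genes and are given with no test. They are sums of transcripts, not of active enzyme.

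**Figure D5:**
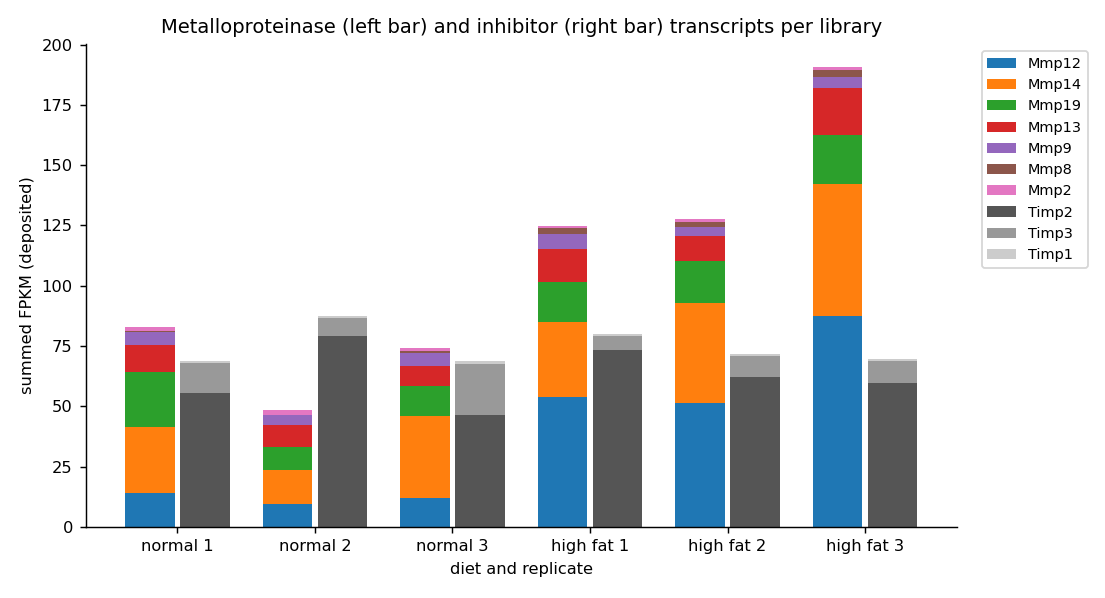
Summed deposited FPKM of the 7 metalloproteinase genes (left bar, coloured) and the 3 inhibitor genes (right bar, grey) in each library, with Mmp12 in blue. The protease bars reach 125 to 191 FPKM on HFD and 48.2 to 82.7 FPKM on ND, while the inhibitor bars lie between 68.7 and 87.3 FPKM in all libraries.

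By the Pearson correlation of log2 CPM over the 6 libraries among 10272 genes, the profile of Mmp12 was most like those of Galns, a lysosomal sulfatase, Tnfrsf13b, the receptor TACI, and Tmem38b, an intracellular cation channel (r = 0.998, 0.997 and 0.996). That of Mmp8 was most like Frmd8, Tusc1 and Nav2 (r = 0.998, 0.997 and 0.997). The correlations were over 0.95 for 97 and 82 genes, and the 6 points share the diet groups, so the values are given as a description.

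Among the other metalloproteinase genes, 6 of 16 listed were tested, and none passed in edgeR or DESeq2. At an unadjusted p under 0.05 in edgeR 2 were higher, Mmp15 and Mmp27, against 18.6% of all genes in either direction. The median log2 fold change of the 6 was -0.14. The most abundant were Mmp25, a membrane-anchored protease of leukocytes, at 7.92 ± 0.624 CPM on HFD and 10.9 ± 6.31 CPM on ND, and Mmp15, at 3.99 ± 1.70 and 1.65 ± 0.917 CPM (SD, n = 3). Without ND replicate 2, where Mmp25 was at 3.58 CPM, Mmp25 was called lower and Mmp27 higher.

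Of 17 tested genes that activate or restrain metalloproteinases, 12 had positive log2 fold changes. At an unadjusted p under 0.05 in edgeR, 7 were higher and 2 lower, against 18.6% of all genes in either direction. None passed the adjusted threshold in edgeR, while DESeq2 called 3 higher, Pcsk6, Plg and Lcn2. In edgeR, Pcsk6 was called higher with upper-quartile scaling, with no filter and with a prior that was not robust, and Pcsk6 and Lcn2 without ND replicate 2. Lcn2 also stands in the neutrophil list. The most abundant were Lrp1, the endocytic receptor that clears several proteases, at 3201 ± 119 and 2420 ± 609 CPM, and Cd44, which can hold Mmp9 at the cell surface, at 787 ± 89.6 and 986 ± 112 CPM on HFD and ND (SD, n = 3). Plg, the plasminogen gene expressed by hepatocytes, stood at log2 1.69 ± 0.54 (SE). Its level moved with the hepatocyte markers, of which all 17 tested were positive and none passed in edgeR (7 higher in DESeq2). At an unadjusted p under 0.05 in edgeR 12 were higher, against 18.6% of all genes in either direction. The marker sums ran from 6036 to 10414 CPM on HFD and from 744 to 3307 CPM on ND. The part of hepatocyte RNA in the level of Plg was not tested.

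Among 17 tested ADAM and ADAMTS genes, relatives that shed membrane proteins or cut matrix, edgeR called none and DESeq2 called Adamts1 lower. At an unadjusted p under 0.05 in edgeR, 1 was higher and 2 lower, against 18.6% of all genes in either direction. Without ND replicate 2, 3 were called lower. Adam10 and Adam17, the main sheddases, had log2 fold changes of 0.13 ± 0.15 and 0.10 ± 0.08 (SE). Of 19 tested matrix genes that such enzymes can cut, only fibronectin (Fn1), which the monocyte list also holds, rose, by 3.47-fold (edgeR adjusted p = 0.0351), and none fell. That call ended without any 1 library other than ND replicate 2, where 2 rose and 1 fell. DESeq2 called 3 higher and 2 lower. Over the matrix list the median log2 fold change was -0.48, with 13 genes negative.

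Of 13 tested AP-1, ETS and RUNX factors, families with known sites in metalloproteinase promoters, 10 had log2 fold changes below 0 (median -0.42). In edgeR, 6 were lower and none higher at an unadjusted p under 0.05, against 18.6% of all genes in either direction. None of the 13 passed the adjusted threshold, while DESeq2 called 4 lower, Fosb, Jun, Jund and Ets2. Without ND replicate 2, edgeR called 5 of the factors lower. Fos and Junb, the most abundant of them, were at 1082 ± 400 and 972 ± 127 CPM on HFD and 1414 ± 290 and 1331 ± 216 CPM on ND (SD, n = 3). Spi1, the PU.1 gene, had a log2 fold change of 0.030 ± 0.10 (SE).

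In the authors' deposited table, both Mmp12 and Mmp8 had a log2 fold change of 2.17 with adjusted p-values of 4.58e-17 and 2.90e-10, and no other member was under 0.05, against 7.98% of its genes.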

How the data were processed

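The members and gene lists were chosen with earlier results of these data known. RNA was isolated in Trizol, enriched on oligo(dT) beads and amplified by PCR after random-hexamer priming, per the labels' protocols. The genome build mm10 and the tools featureCounts, HISAT2, STAR, StringTie, DESeq and edgeR are named per the submitters' processing notes, with settings not given in the sources used here. The authors deposited, per gene, raw read counts, a normalised signal that was not used further, FPKM values, and their own log2 fold change with p-values.

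The counts were tested with edgeR 4.0.16 in R 4.3.3 (TMM scaling, default low-count filter, quasi-likelihood test, robust prior), and p-values were adjusted over 14361 genes by the Benjamini-Hochberg method with a threshold of 0.05. CPM are relative to TMM-scaled library sizes. Intervals are 95% intervals of that fit. SE is the log2 fold change divided by the root of F. The fits were run on simulated counts as a check of the code. Those counts had the same spread for every gene, smaller than the common spread of these data. Changes were put only into genes with higher counts, so error rates here were not measured. Alternatives were DESeq2 1.42.0, limma 3.58.1 (voom), other scalings, filters and priors, a hepatocyte score (mean log2 CPM, prior count 2) as a covariate, and fits that left out each library. Genes named are all members, the called or else the 2 most abundant genes of each list of related genes (not of the marker lists), and the 3 genes most like each called member (mean of at least 5 CPM). Other genes were named after their values were seen. Each library was taken as 1 mouse.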

Additional observations from a re-analysis of the deposited data

How the results depend on the processing

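Mmp12 and Mmp8 were the 2 members called under median-ratio and upper-quartile scaling, without a low-count filter, with a filter of 1 CPM in 3 libraries (which left out Timp1), in DESeq2, in limma voom and with a prior that was not robust. With the hepatocyte score, which did not overlap between the diets, as a covariate, 0 members and 0 genes were called (1026 genes at an unadjusted p under 0.05). Without HFD replicate 1 and ND replicate 1, the ends of that score and a choice made after seeing the data, both counts were again 0 (1384 genes at an unadjusted p under 0.05). DESeq2 called 1206 genes against 91. With 1 library left out, between 0 and 2 members and between 0 and 1385 genes were called. In those fits a sign turned for Mmp9 (-0.31 to 0.093), Mmp19 (-0.020 to 0.67) and Timp2 (-0.081 to 0.31). Timp2 was also -0.097 with the hepatocyte score and -0.075 without both end libraries. The cause of these changes was not tested. Over the members' log2 fold changes under all alternatives, 128 kept their direction and side of the threshold, 13 lost a call and 8 turned sign. All 13 lost calls were of Mmp8 and Mmp12, which kept the call in 9 and 8 of 15 alternatives. The other members had no call to lose. No paired analysis was possible because the labels give no number shared between mice of the diets. Counts were low for Timp1 and for Mmp8 on the ND. Their SEs were 0.39 and 0.35, beside 0.35 for Mmp14 and 0.37 for Timp3, which had more reads. The part of low counts in precision was not tested.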
